A study of Mus musculus with 12 samples.

Results

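The 5 genes described here encode the subunits of the IL-12 family of cytokines, and they were taken by symbol from the 12850 genes listed in an RNA-seq table of mouse macrophages stimulated with lipopolysaccharide (LPS). All 5, *Il12a*, *Il12b*, *Il23a*, *Il27* and *Ebi3*, were in the table, and all 5 were among the 11885 genes that reached 1 CPM (reads counted on a gene, scaled by the size of the library) in at least 2 libraries. The cells were thioglycollate-elicited peritoneal exudate cells (PECs), which collect in the peritoneal cavity after an irritant is injected, from C57BL/6 mice that were either wild type (WT) or homozygous for a knock-in that replaces serine with alanine at residue S513 of Regnase-1 (*Zc3h12a* S513A/S513A, called S513A below). LPS, part of the outer wall of Gram-negative bacteria, was given at 100 ng/ml, and each genotype was sampled at 0, 4 and 8 hr, which made 6 groups of 2 libraries each. The knock-in is carried by every cell of the S513A mice, and a change of single bases cannot be checked in counts per gene. The labels number the replicates but do not say that they came from separate mice, so the p-values below measure the spread between these libraries.

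IL-12 family cytokines are pairs of 2 chains, a helical chain and a chain that resembles a soluble cytokine receptor. The p40 chain encoded by *Il12b* joins the p35 chain of *Il12a* to form IL-12 and the p19 chain of *Il23a* to form IL-23, while the chain encoded by *Ebi3* joins the p28 chain of *Il27* to form IL-27 and can also join p35 to form IL-35. Macrophages and dendritic cells make these chains after Toll-like receptors sense microbial products, IL-12 is known for driving interferon-γ production, IL-23 for supporting IL-17-producing T cells, and IL-27 for both promoting and restraining T cell responses. Because each cytokine needs both chains, the timing of one mRNA against another is of interest, and the time course allows it to be described for each chain.

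Each library had between 9525979 and 12439960 reads on the listed genes (median 11137241), so that 3 reads, taken as the floor, correspond to 0.209 to 0.349 CPM. The SD of the log2 difference between the 2 replicates of a group lay between 0.163 and 0.401 over 8353 genes, widest in WT at 4 hr. Of 7 macrophage markers all 7 were listed, with a summed level of 16160 to 26350 CPM. Most of that sum was *Lyz2* (9006 to 20940 CPM), while *Adgre1* had 1040 to 3054 CPM and *Csf1r* 884 to 1800 CPM. Dendritic cells also make IL-12 family cytokines, and 5 of their 6 markers were listed, with a summed level of 5.18 to 7.73 CPM at 0 hr, 5.69 to 8.37 CPM at 4 hr and 9.14 to 11.9 CPM at 8 hr, while *Xcr1* was not analysed here. Within that sum *Ccr7* averaged 1.28 CPM at 0 hr, 4.22 CPM at 4 hr and 6.67 CPM at 8 hr, whereas *Clec9a* averaged 3.73, 0.754 and 1.07 CPM and *Cd209a* 0.552, 0.374 and 0.112 CPM at these times, and *Flt3* and *Zbtb46* each had between 0.176 and 1.71 CPM in all libraries. Markers of other cells were low or partly listed, namely neutrophils (2 of 7, 20.2 to 108 CPM, nearly all *S100a8*), B cells (4 of 5, 3.27 to 8.68 CPM), mast cells (3 of 4, 1.06 to 2.69 CPM), mesothelial cells (3 of 4, 0.325 to 2.16 CPM) and T cells (1 of 5, 0.0954 to 1.09 CPM). The summed eosinophil markers (2 of 4) went from 15.2 to 18.4 CPM at 0 hr to 7.90 to 9.94 CPM at 4 hr and 3.54 to 4.48 CPM at 8 hr, and the single NK cell marker listed (1 of 3) from 0 to 0.0878 CPM at 0 hr to 1.29 to 3.14 CPM at 4 hr and 0.854 to 1.84 CPM at 8 hr. The part of these other cells in the values below was not tested, and in such bulk samples fewer cells of a type and less RNA per cell cannot be told apart.

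The promoters of 3 of the 5 genes were held in the RefSeq table (GRCm38.p6), and they are shown because these genes moved by very different amounts after LPS. Each sequence runs 5′ to 3′ on the strand of the gene, from 250 bases before the start site to 50 bases after it, and capitals mark matches to the motifs described in the next paragraph. The *Il12b* window is chr11:44399813-44400112, the *Il12a* window is chr3:68690394-68690693, and the *Ebi3* window is chr17:55952373-55952672, all on the plus strand.
Il12b promoter: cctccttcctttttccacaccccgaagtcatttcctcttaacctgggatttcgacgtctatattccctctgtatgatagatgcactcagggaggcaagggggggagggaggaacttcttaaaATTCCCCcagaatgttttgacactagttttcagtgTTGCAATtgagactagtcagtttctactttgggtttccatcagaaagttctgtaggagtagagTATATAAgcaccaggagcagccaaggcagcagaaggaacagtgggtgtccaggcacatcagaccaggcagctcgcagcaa
Il12a promoter: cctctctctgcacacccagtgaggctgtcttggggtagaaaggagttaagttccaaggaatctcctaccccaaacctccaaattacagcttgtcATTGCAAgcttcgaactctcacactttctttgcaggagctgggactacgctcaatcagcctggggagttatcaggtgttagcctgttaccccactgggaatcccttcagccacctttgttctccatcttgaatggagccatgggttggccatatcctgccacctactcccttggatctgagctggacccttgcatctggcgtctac
Ebi3 promoter: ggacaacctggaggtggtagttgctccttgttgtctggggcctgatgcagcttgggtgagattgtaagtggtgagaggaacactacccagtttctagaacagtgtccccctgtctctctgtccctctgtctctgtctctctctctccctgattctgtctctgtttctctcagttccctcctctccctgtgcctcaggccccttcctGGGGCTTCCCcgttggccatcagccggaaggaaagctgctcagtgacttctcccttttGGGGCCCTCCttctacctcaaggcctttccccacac

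The motifs were chosen after these sequences had been read, and they were searched on both strands. In the *Il12b* window the letters ATTCCCC, the reverse complement of the Rel half-site GGGGAAT, began at position -128 from the start site, the C/EBP motif TTGCAAT at -93 and the TATA variant TATATAA at -30. Over all 32851 promoter windows of the same length, 3.38% held the half-site, 2.22% the C/EBP motif and 3.24% the TATA variant. The *Il12a* window held the C/EBP motif on the other strand at -156, and a further *Il12a* window at a later start site (chr3:68691174-68691473) held none of the motifs. In the *Ebi3* window the NF-κB consensus, given by name because it uses letters other than the bases, matched GGGGCTTCCC on both strands at -44 and GGGGCCCTCC on the plus strand at position 15, and 8.46% of all windows held that consensus. The interferon-response core, the AP-1 motif TGANTCA and the TATA box TATAAA were found in none of these 4 windows, against 3.44%, 7.81% and 13.6% of all windows. A match describes letters only and does not show that a factor binds there.

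The other end of these mRNAs differs too. AU-rich elements are short motifs in 3′ UTRs at which decay factors such as tristetraprolin (*Zfp36*) act, and one form of them is the heptamer TATTTAT (written as DNA). It occurred 5 times in the 497-base 3′ UTR of *Il12a*, 1 time in the 774 bases of *Il12b*, 5 times in the 657 bases of *Il23a*, 4 times in the 285 bases of *Il27* and 0 times in the 245 bases of *Ebi3*. Among 11165 tested genes with an annotated 3′ UTR, 29.9% held the heptamer at least once and 3.95% held it 3 times or more. One window from each gene that held it is printed, with 1 heptamer in capitals, from the GENCODE transcripts on GRCm38. The windows of *Il12a*, *Il23a* and *Il27* also hold neighbouring heptamers, left in lower case.
Il12a 3′ UTR, chr3:68698426-68698455, plus strand: gtacatgagccTATTTATatttatttattt
Il12b 3′ UTR, chr11:44413478-44413507, plus strand: agtaatttatgTATTTATtaatttatttct
Il23a 3′ UTR, chr10:128296174-128296203, minus strand: gttatttattcTATTTATaaggaattatgt
Il27 3′ UTR, chr7:126589077-126589106, minus strand: tcttggatattTATTTATttttaagaaatg

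*Il12a* (Entrez gene 16159; chromosome 3, 68690644 to 68698550, plus strand of GRCm38, 8 exons), which encodes the p35 chain, was near the floor before LPS and kept most of its 4-hr level at 8 hr. At 0 hr its level was 0.906 and 0.692 CPM in the WT libraries (13 and 9 reads) and 0.263 and 0.671 CPM in the S513A libraries (3 and 8 reads). At 4 hr it was 78.2 and 66.3 CPM in WT and 79.0 and 92.0 CPM in S513A. At 8 hr it was 51.4 and 52.6 CPM in WT and 61.9 and 63.8 CPM in S513A. Every LPS library lay above every 0-hr library, and within each genotype both 8-hr libraries lay below both 4-hr libraries. The summed reads at 4 hr were 90.0-fold those at 0 hr in WT (95% exact interval for counting error 59.2 to 144) and 180-fold in S513A (100 to 362), where the 0-hr sum was 11 reads against 22 in WT.

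*Il23a* (Entrez gene 83430; chromosome 10, 128296140 to 128298084, minus strand, 4 exons), which encodes the p19 chain of IL-23, was the rarest chain and was seen mainly at 4 hr. It had 0 reads in all 4 libraries at 0 hr, which allows a level of up to 0.110 CPM over the WT group and 0.129 CPM over the S513A group. At 4 hr it had 19 and 10 reads in WT (1.67 and 0.919 CPM) and 15 and 11 reads in S513A (1.48 and 1.28 CPM). At 8 hr it had 0 reads in both WT libraries, which allows up to 0.143 CPM over the group, and 4 and 2 reads in S513A (0.345 and 0.217 CPM). Against the floor of 3 reads over the group, the 4-hr level was at least 11.9-fold higher than at 0 hr in WT and at least 10.8-fold higher in S513A. *Il23a* was in the tested set through 3 of the 4 libraries at 4 hr alone.

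*Il27* (Entrez gene 246779; chromosome 7, 126589009 to 126595035, minus strand, 5 exons), which encodes the p28 chain, rose about as steeply as *Il12a* and lost most of its level by 8 hr. At 0 hr it had 5 and 9 reads in WT (0.348 and 0.692 CPM) and 8 and 8 reads in S513A (0.702 and 0.671 CPM). At 4 hr its level was 72.1 and 66.2 CPM in WT and 81.3 and 98.5 CPM in S513A. At 8 hr it was 14.1 and 18.2 CPM in WT and 20.01 and 21.7 CPM in S513A. The 3 times did not overlap in either genotype, and the 4-hr sum of reads was 135-fold the 0-hr sum in WT (80.3 to 248) and 130-fold in S513A (79.8 to 228). Its exons share 103 bases with exons of *Apobr* on the opposite strand, which had 1119 to 2315 reads per library, and since the reads were mapped without strand, reads in those bases cannot be told apart.

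*Il12b* (Entrez gene 16160; chromosome 11, 44400063 to 44414677, plus strand, 8 exons) encodes the p40 chain shared by IL-12 and IL-23. Its estimated rise was the largest among the chains with reads at 0 hr, although in S513A its interval overlapped that of *Il12a*. At 0 hr *Il12b* had 5 and 3 reads in WT (0.348 and 0.231 CPM) and 4 and 6 reads in S513A (0.351 and 0.503 CPM). At 4 hr its level was 189.6 and 177.5 CPM in WT and 177.9 and 208.4 CPM in S513A. At 8 hr it was 54.9 and 60.5 CPM in WT and 47.2 and 54.1 CPM in S513A. The 3 times did not overlap in either genotype, and the 4-hr sum was 628-fold the 0-hr sum in WT (318 to 1456) and 447-fold in S513A (243 to 934), intervals that are wide because the 0-hr sums were 8 and 10 reads.

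*Ebi3* (Entrez gene 50498; chromosome 17, 55952623 to 55957022, plus strand, 5 exons), which encodes the receptor-like chain of IL-27 and IL-35, was the exception to this pattern, since it was already present before LPS and had a mean no lower at 8 hr than at 4 hr. At 0 hr it had 14.0 and 11.2 CPM in WT and 9.13 and 11.7 CPM in S513A. At 4 hr it had 28.0 and 26.7 CPM in WT and 25.4 and 25.2 CPM in S513A. At 8 hr it had 32.8 and 29.955 CPM in WT and 33.9 and 24.8 CPM in S513A. The LPS libraries all lay above the 0-hr libraries, with a 4-hr sum 2.15-fold the 0-hr sum in WT (1.88 to 2.46) and 2.43-fold in S513A (2.08 to 2.85). *Ebi3* shares 270 exon bases with the antisense gene *Gm16712*, which had 9 to 72 reads per library, and here too strand was not used in mapping.

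**Figure D1:**
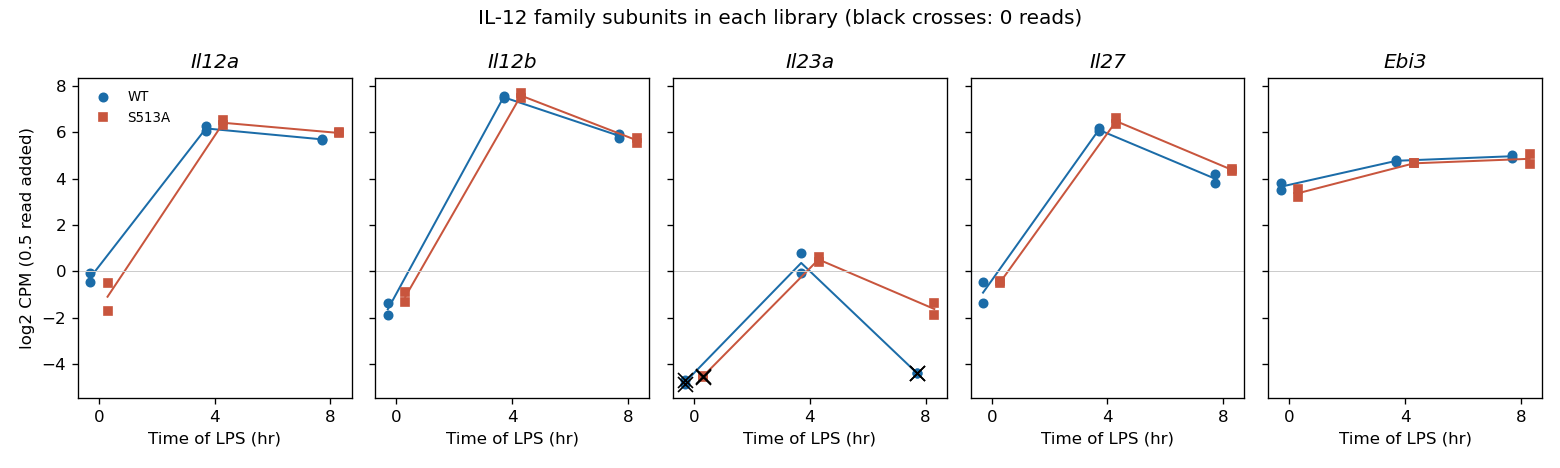
Each panel plots the deposited log2 CPM of 1 subunit gene (y axis, with 0.5 read added before the log) against the time of LPS in hr (x axis), with 1 point per library, lines through the means of 2 libraries, and black crosses for libraries with 0 reads. *Il12b* peaked at 177.5 to 208.4 CPM at 4 hr in both genotypes, whereas *Ebi3* lay between 24.8 and 33.9 CPM over the 4- and 8-hr libraries.

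All 5 subunit genes were called higher at 4 hr than at 0 hr in each genotype by limma at an adjusted p of 0.05, in tests that called 22.6% of all genes higher in WT and 23.1% in S513A (18.7% and 20.2% lower). All except *Ebi3* entered the tested set through LPS libraries alone, so that they had to differ, and the count says nothing further. *Ebi3* passed the filter in every library. Its log2 fold change at 4 hr was 1.12 ± 0.18 (SE) in WT (limma adjusted p = 0.000501) and 1.29 ± 0.18 in S513A (adjusted p = 0.000174), larger than the spread between libraries. By size of the fitted change, *Il12b* ranked 2 from the top of 11885 genes in WT and 4 in S513A, and *Il27* 16 and 18. *Il12a* ranked 29 and 10, and *Ebi3* 1095 and 955. The changes of *Il12b*, *Il27* and *Il12a* rest on 3 to 13 reads per library at 0 hr. With a further 1 CPM added before the log, the log2 change of *Il12b* was 7.12 rather than 9.16 in WT. In S513A it was 7.04 rather than 8.70. The ranks of these genes are therefore given as description only, and nothing is read from them.

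At 8 hr, against the same 0-hr libraries, 4 of the 5 were called higher in WT and all 5 in S513A, where 19.4% and 20.9% of all genes were called higher (14.9% and 19% lower). The exception in WT was *Il23a*, with 0 reads at both times (adjusted p = 0.755). In S513A its call rested on 4 and 2 reads (limma adjusted p = 0.0187) and was lost without either S513A library at 0 hr (adjusted p = 0.0528 and 0.0560), without either at 8 hr (adjusted p = 0.122 and 0.0521), and with a further 1 CPM added before the log (adjusted p = 0.171). *Il12a*, *Il12b* and *Il27* reached 1 CPM in LPS libraries alone, so that they had to differ here too, and nothing is read from their calls. The change of *Ebi3*, which passed the filter in every library, was 1.32 in WT (limma adjusted p = 0.000211) and 1.49 in S513A (adjusted p = 7.78e-05) on the log2 scale.

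The genes separated by what was left at 8 hr. As a share of the 4-hr mean, WT cells held 71.9% of *Il12a*, 31.4% of *Il12b*, 23.4% of *Il27* and 115% of *Ebi3*. The S513A cells held 73.5% of *Il12a*, 26.2% of *Il12b*, 23.2% of *Il27* and 116% of *Ebi3*. For *Il23a* the share was 20.4% in S513A, from 6 reads at 8 hr, while the 0 reads in WT give only a bound, a level at 4 hr at least 9.13-fold higher than the floor at 8 hr. Over all pairs of 1 library per time, these shares ranged from 65.7% to 80.7% for *Il12a* in both genotypes together, from 22.6% to 34.1% for *Il12b* and from 19.6% to 27.5% for *Il27*, so the range of *Il12a* lay apart from the other two. In WT the ranges of *Il12b* (28.9% to 34.1%) and *Il27* (19.6% to 27.5%) did not overlap, and in S513A they did (22.6% to 30.4% and 20.3% to 26.6%).

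From 4 to 8 hr, 3 of the 5 were called lower in WT and 2 in S513A, in tests that called 7.49% and 8.99% of all genes lower (6.73% and 9.31% higher), and none was called higher. The count in WT includes *Il23a*, which was in the tested set through 4-hr libraries alone and so had to fall, and nothing is read from its call. *Il12b* fell by 1.67 on the log2 scale in WT (SE 0.20, limma adjusted p = 0.000638) and fell by 1.93 in S513A (adjusted p = 0.000343). *Il27* fell by 2.102 in both genotypes (SE 0.26, adjusted p = 0.000751 in WT and 0.000654 in S513A). The fitted change of *Il23a* was -4.76 in WT (adjusted p = 0.00483), a value that depends on the 0.5 read added to counts of 0. In S513A the change of *Il23a* was -2.14 (limma adjusted p = 0.0973), from summed reads of 26 at 4 hr and 6 at 8 hr. Voom weights (adjusted p = 0.0140), no trend in the prior (0.00286) and a further 1 CPM (0.0116) brought it past the threshold. The filter chose *Il23a* through 4-hr libraries of S513A too, so it had to fall there as well. Nothing is read from these p-values.

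The remaining 2 genes did not pass. The change of *Il12a* was -0.47 in WT (95% CI -1.15 to 0.21, limma adjusted p = 0.338) and -0.44 in S513A (-1.12 to 0.24, adjusted p = 0.324), although the libraries of the 2 times did not overlap, and voom weights brought it past the threshold in both genotypes (adjusted p = 0.0356 and 0.0405). The fit shares 1 spread over all groups. For *Il12a* the log2 SD was 0.26 (WT) and 0.86 (S513A) at 0 hr, against 0.02 to 0.17 at 4 and 8 hr. Its interval therefore does not show that the level was unchanged. By summed reads, 4 hr was 1.39-fold 8 hr in WT (1.29 to 1.51, counting error only) and 1.355-fold in S513A (1.26 to 1.46). For *Ebi3* the change was 0.20 in each genotype (interval -0.20 to 0.59, limma adjusted p = 0.495 in WT and 0.454 in S513A). The 4- and 8-hr libraries of *Ebi3* overlapped in S513A but not in WT.

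**Figure D2:**
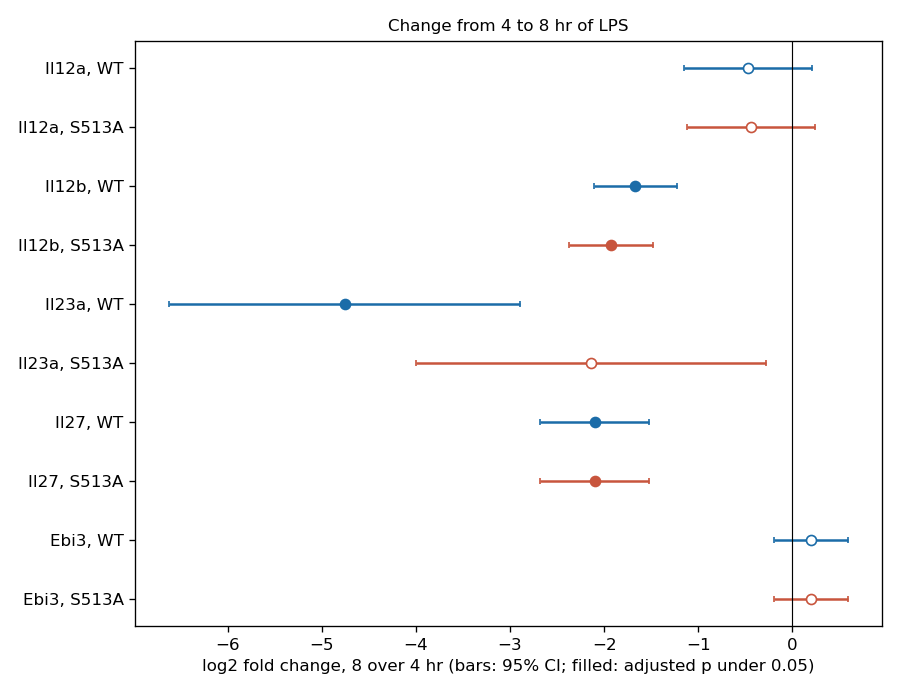
The x axis is the limma log2 fold change from 4 to 8 hr of LPS and each line is 1 gene in 1 genotype (WT blue, S513A red), with bars for the 95% CI and filled points for an adjusted p under 0.05. *Il12b* and *Il27* lie between -1.67 and -2.102 in both genotypes, *Il12a* at -0.47 and -0.44 with intervals that cross 0, and *Ebi3* at 0.20.

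Since each cytokine is a pair, the ratio of its 2 chains was taken within each library, which leaves out the scaling between libraries. The 4 libraries at 8 hr were compared with the 4 at 4 hr over both genotypes. These are ratios of CPM, not divided by transcript length (1944 bases for *Il12b* and 1303 for *Il12a*). Their change over time is unaffected by length, but their sign does not tell which chain had more transcripts. With 4 against 4 libraries the two-sided exact permutation test cannot give a p below 0.0286, and p-values are left unadjusted. For the 2 ratios that hold *Il23a* no p is given, because that gene was chosen by the filter through its 4-hr level. For IL-12, the log2 ratio of *Il12b* to *Il12a* was 1.26 ± 0.12 (SD, n = 4) at 4 hr and -0.08 ± 0.28 at 8 hr. That is a change of -1.34 (exact permutation p = 0.0286, unadjusted). All 4 libraries at 4 hr lay between 1.17 and 1.42, and all 4 at 8 hr between -0.39 and 0.20. WT lay above S513A at 4 hr (1.28 and 1.42 against 1.17 and 1.18). The same held at 8 hr (0.10 and 0.20 against -0.39 and -0.24), a difference that was not tested. The SDs of the ratios are taken over both genotypes and so are not the spread of replicates alone. The change was -1.20 in WT alone and -1.49 in S513A alone.

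For IL-27, the log2 ratio of *Ebi3* to *Il27* moved the other way, from -1.58 ± 0.30 at 4 hr to 0.72 ± 0.41 at 8 hr (SD, n = 4). The change was 2.30 (exact permutation p = 0.0286, unadjusted). It was at most -1.31 in every 4-hr library and at least 0.19 in every 8-hr library, with a change of 2.30 in each genotype. Between the partners of p40, the log2 ratio of *Il23a* to *Il12a* moved from -5.85 ± 0.30 to -8.85 ± 1.46, a change of -2.99. That change was -4.29 in WT, where it rests on 0 reads of *Il23a* at 8 hr and so on the added 0.5 read, and -1.70 in S513A, and with a further 1 CPM added it was -0.56. For IL-23, the ratio of *Il12b* to *Il23a* changed by 1.65 with overlapping times, and the sign turned with a further 1 CPM added (-0.77).

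**Figure D3:**
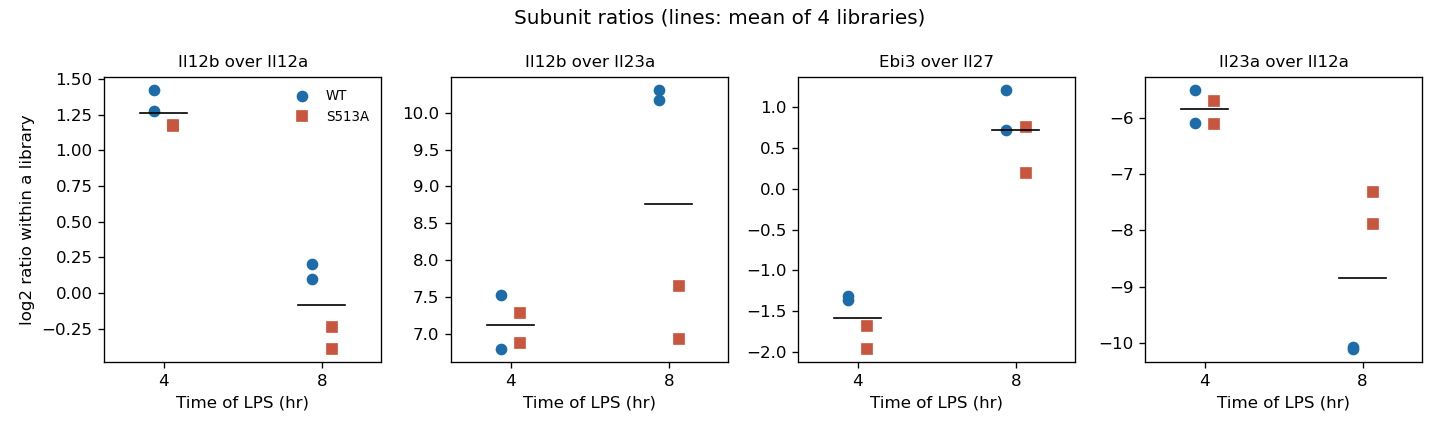
Each panel plots a log2 ratio of 2 subunit mRNAs within a library (y axis) at 4 and 8 hr of LPS (x axis). The ratios are of CPM, not divided by transcript length, with 1 point per library and lines at the mean of 4 libraries. The ratio of *Il12b* to *Il12a* went from a mean of 1.26 to -0.08 and that of *Ebi3* to *Il27* from -1.58 to 0.72, with no overlap between the times.

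To set the genes side by side, levels were divided by transcript length and given as CPM per kb. Before LPS *Ebi3* led, at 10.9 ± 1.70 CPM per kb in WT and 9.01 ± 1.55 in S513A (SD, n = 2), and no other chain exceeded 0.695 CPM per kb in any library. At 4 hr the order in WT was *Il12b* (94.4 ± 4.42), *Il27* (67.7 ± 4.08), *Il12a* (55.5 ± 6.49), *Ebi3* (23.7 ± 0.81) and *Il23a* (0.953 ± 0.391), and no neighbours overlapped. The S513A cells had the same order at 4 hr, but *Il12b* (99.4 ± 11.1) and *Il27* (88.1 ± 11.9) overlapped there. By 8 hr *Il12a* led in both genotypes, at 39.9 ± 0.65 in WT and 48.2 ± 1.00 in S513A. Behind it *Il12b* (29.7 ± 2.04 and 26.1 ± 2.53) and *Ebi3* (27.2 ± 1.72 and 25.4 ± 5.58) did not differ beyond their spread, and *Il27* had 15.9 ± 2.82 and 20.4 ± 1.14 CPM per kb. At both times after LPS *Il23a* was last.

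**Figure D4:**
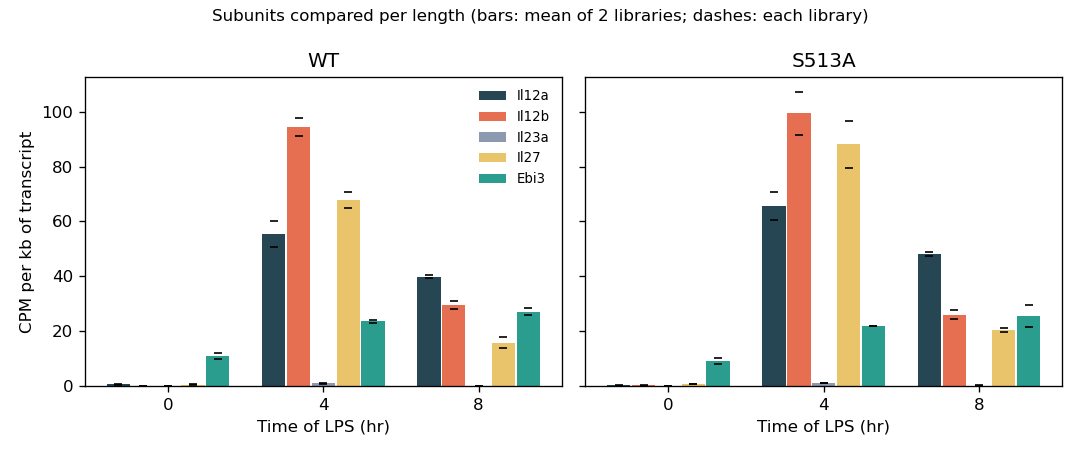
Bars give the mean of 2 libraries in CPM per kb of transcript (y axis, from 0) for the 5 subunit genes at 0, 4 and 8 hr of LPS (x axis) in WT (left) and S513A (right), and dashes give each library. *Il12b* leads at 4 hr with 94.4 and 99.4 CPM per kb, and *Il12a* leads at 8 hr with 39.9 and 48.2.

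Regnase-1 is an endoribonuclease that degrades cytokine mRNAs, including *Il12b*, and the comparison of S513A with WT asks whether the substitution changed the levels of these chains. By limma 0 of the 5 genes were called at 0, 4 or 8 hr or averaged over the 3 times, where 0.0337%, 0.0168%, 0.0337% and 0.0673% of all genes were called, and an unadjusted p under 0.05 was reached by 949, 833, 1487 and 798 of the 11885 genes. The difference of *Il12a* on the log2 scale was 0.24 at 4 hr (95% CI -0.43 to 0.92) and 0.27 at 8 hr (-0.40 to 0.95). That of *Il27* was 0.37 at both times (-0.20 to 0.95), and 0.40 averaged over the 3 times (0.07 to 0.74, unadjusted p = 0.0221 and adjusted p = 0.672 by limma). *Ebi3* differed by -0.11 at 4 hr and -0.11 at 8 hr, with intervals from -0.51 to 0.28.

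*Il23a* at 8 hr had the lowest adjusted p of the 5 genes in these contrasts, with a log2 difference of 2.77 (0.91 to 4.63, limma unadjusted p = 0.00764, adjusted p = 0.395), between 4 and 2 reads in S513A and 0 and 0 in WT. A prior without a trend called it (adjusted p = 0.0275). The 2 libraries of each genotype did not overlap for 2 of the 5 genes at 0 hr, 3 at 4 hr and 4 at 8 hr, against 57.4%, 28.3% and 53.7% of all genes. At 4 and 8 hr the S513A libraries were the higher ones for *Il12a* and *Il27*, and at 8 hr the lower ones for *Il12b*. At 0 hr the S513A libraries were lower for *Il12a* and higher for *Il12b*, from 3 to 13 reads.

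**Figure D5:**
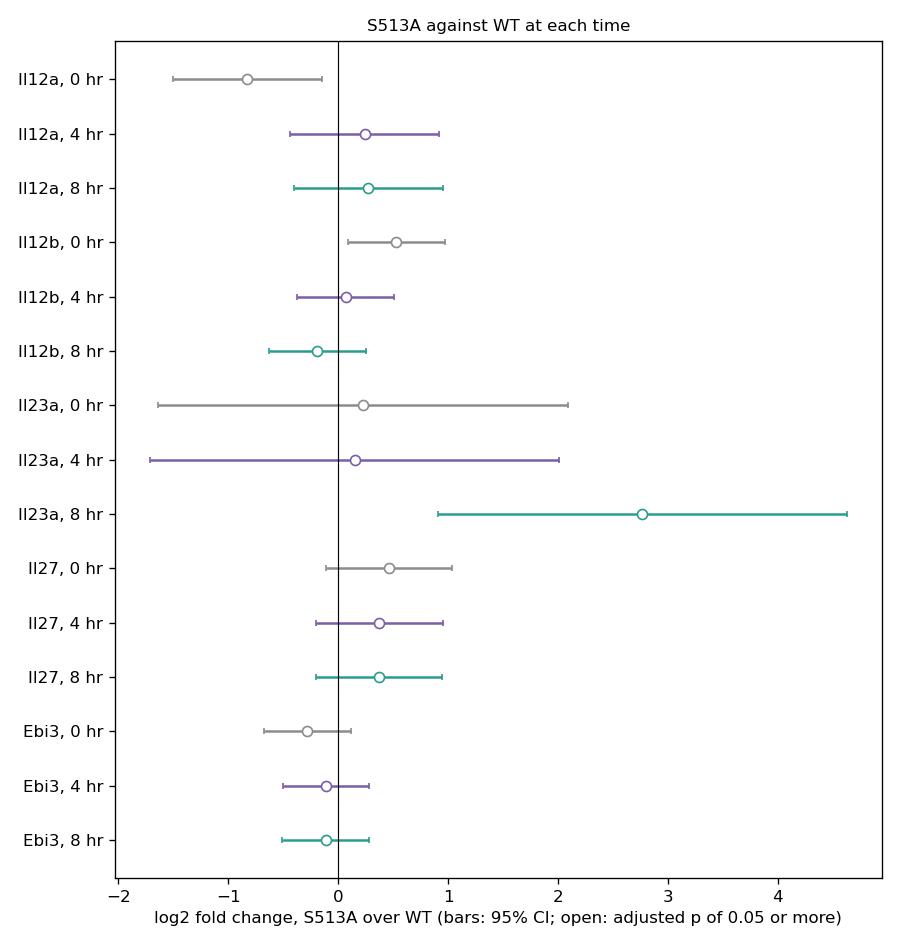
The x axis is the limma log2 fold change of S513A over WT and each line is 1 gene at 1 time of LPS, with bars for the 95% CI and open points for an adjusted p of 0.05 or more. All 15 points are open, and the interval of *Il23a* at 8 hr runs from 0.91 to 4.63.

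Whether the course over time differed between the genotypes was tested as an interaction. None of the 5 genes was called for the change from 0 to 4 hr, 0 to 8 hr or 4 to 8 hr, and neither was any other gene (0%, 0% and 0% of all genes by limma, with 144, 2405 and 2243 of 11885 at an unadjusted p under 0.05). For the change from 4 to 8 hr, the difference between genotypes on the log2 scale was 0.03 for *Il12a* (95% CI -0.93 to 0.99), -0.26 for *Il12b* (-0.88 to 0.37), 2.62 for *Il23a* (-0.02 to 5.25), 0.00 for *Il27* (-0.82 to 0.81) and 0.00 for *Ebi3* (-0.56 to 0.56). From 0 to 4 hr that of *Il12a* was 1.07 (0.11 to 2.03, unadjusted p = 0.0322, adjusted p = 1.00 by limma), where the 0-hr values are 3 to 13 reads.

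Receptors and signalling proteins of the family were followed from a list. Of 5 receptor genes, 1 was called higher and 1 lower at 4 hr in WT, and 1 higher and 2 lower in S513A, against 22.6% higher and 18.7% lower of all genes in WT and 23.1% and 20.2% in S513A. At 8 hr 2 were called higher and 2 lower in WT, and 2 higher and 3 lower in S513A. Of all genes, 19.4% were called higher and 14.9% lower at 8 hr in WT, and 20.9% and 19% in S513A. *Il12rb2*, the chain specific to the IL-12 receptor, was called lower at 8 hr in both genotypes, by 1.12 and 1.11 on the log2 scale. *Il6st*, the gp130 chain used by the IL-27 receptor, was 1.12 lower on the log2 scale in WT and 1.16 lower in S513A at 4 hr. *Il23r*, the specific chain of the IL-23 receptor, went from 0 to 2 reads per library at 0 hr to 8 to 11 at 4 hr, and *Il12rb1*, the receptor chain that binds p40, had 4 to 9 reads at 0 hr and 13 to 23 reads at 8 hr. Both were called higher at 8 hr, but *Il23r* reached 1 CPM in LPS libraries alone and *Il12rb1* in 8-hr libraries alone, so that they had to differ. Among the signalling genes, the kinases *Jak2* and *Tyk2* and the factor *Stat4*, which acts downstream of IL-12, were called higher at 4 hr in both genotypes. *Jak2* rose by 3.20 in WT and 3.14 in S513A on the log2 scale at 4 hr, and from 4 to 8 hr it fell by 0.66 and fell by 0.42. *Jak1* did not pass at 4 hr, with changes of 0.17 and 0.20, and neither did *Stat3*, with -0.10 and 0.12. At 8 hr *Jak1* (0.30), *Stat3* (0.55) and *Tyk2* (0.61) were called higher in S513A. In WT none of these passed at 8 hr (0.07, -0.04 and 0.15), and the interaction was not called for any of them.

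Among 9 transcription factors known to activate the subunit genes, 8 were called higher and 1 lower (*Irf8*) at 4 hr in both genotypes, where 22.6% and 23.1% of all genes were called higher and 18.7% and 20.2% lower. The median log2 change was 1.34 in WT and 1.31 in S513A against 0.04 and -0.00 over all genes tested. From 4 to 8 hr, 4 were called lower and 1 higher in both genotypes, against 7.49% and 8.99% of all genes lower and 6.73% and 9.31% higher. The 4 were *Rel* (-1.34 in WT and -1.08 in S513A), the NF-κB subunit that *Il12b* is known to depend on, *Nfkb1* (-1.40 and -0.96), *Nfkbiz* (-1.80 and -1.58), which encodes the nuclear cofactor IκBζ, and *Spi1* (-0.56 and -0.70), which encodes PU.1. The 1 called higher was *Irf8* (0.50 and 0.63), a factor of the interferon regulatory family. *Irf1*, *Irf5*, *Cebpb* and *Rela* did not pass in either genotype, with changes between -0.42 and 0.25.

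Of 4 genes listed as dampers of the subunit genes, 3 were in the table (*Nfil3*, *Maf* and *Bcl6*). At 4 hr *Bcl6* was called higher in both genotypes and *Nfil3* lower in WT. From 4 to 8 hr 2 of the 3 were called lower in WT (*Maf* and *Bcl6*) and 0 in S513A, where 7.49% and 8.99% of all genes were called lower, and the difference between genotypes was not called for any of the 3 (adjusted p = 0.259 for *Maf* and 0.266 for *Bcl6* by limma). Of 6 mRNA decay factors, 2 were called higher and 2 lower at 4 hr in both genotypes, against 22.6% and 23.1% of all genes higher and 18.7% and 20.2% lower. *Zc3h12a*, which encodes Regnase-1, rose by 2.71 in WT and 2.88 in S513A on the log2 scale at 4 hr and fell by 1.16 and by 0.87 from 4 to 8 hr. *Zfp36*, which encodes tristetraprolin, rose by 0.80 and 0.86 at 4 hr. The 2 called lower at 4 hr were *Zfp36l1* (-2.10 in WT and -2.07 in S513A) and *Zfp36l2* (-0.95 and -1.01). From 4 to 8 hr 3 of the 6 were called lower in WT (*Zc3h12a*, *Zfp36* and *Rc3h1*) and 1 lower in S513A, where *Zfp36l2* was called higher, against 7.49% and 8.99% of all genes lower, and the difference between genotypes was called for 0 of the 6.

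The genes whose log2 CPM ran closest to each chain over the 12 libraries were named by Pearson's r. They were *Sh3bp5*, *Lacc1* and *Cd38* for *Il12a* (r = 0.994 to 0.996), *Nfkbia*, *Tnf* and *Il1b* for *Il12b* (0.998), *Usp47*, *Mrgbp* and *Tlk2* for *Il23a* (0.969 to 0.971), *Cd69*, *Rsad2* and *Ppp4r2* for *Il27* (0.997 to 0.998), and *Vnn3*, *Bop1* and *Lox* for *Ebi3* (0.979 to 0.980). The libraries fall into only 3 times, and a gene that moves with LPS will correlate with any other that does. Over the 8 LPS libraries alone, 0 of the 20 closest genes were the same for *Il12a*, 0 for *Il12b*, 2 for *Il23a*, 5 for *Il27* and 1 for *Ebi3*. With Spearman's rho over the 12 libraries, 1, 2, 0, 5 and 4 of the 20 were the same, in that order. Within the family, r over the 12 libraries was highest between *Il12b* and *Il27* (0.988) and lowest between *Il23a* and *Ebi3* (0.575). Over the 8 LPS libraries r of *Ebi3* with each of the other 4 chains was between -0.680 and -0.587. These libraries fall into only 2 times, and the change of *Ebi3* between them was not called in either genotype, so no opposite course is read from these values.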

How the data were processed

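RNA was measured in 12 libraries of PECs. Per the labels and the study's methods, the authors mapped paired-end reads to mm10 with HISAT2 without strand and counted them per gene with featureCounts 1.6.3; the annotation is not given in the sources used here. The values the authors deposited are log2 CPM with 0.5 read added and an adjusted library size. Every value gave back a whole number of reads (largest departure 0.00103 read), and those reads are the counts in the text. Intervals on reads and floors cover counting error only.

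All 11885 genes that reached 1 CPM in 2 or more libraries were fitted together with limma 3.58.1 in R 4.3.3, as 6 group means (6 residual degrees of freedom) and a prior variance that follows the mean. Tests were two-sided with Benjamini-Hochberg adjustment over all genes tested in each contrast, at a threshold of 0.05. Ratios were tested with exact permutation tests, with p-values left unadjusted (Python 3.11.15, scipy 1.17.1). The text names the 5 members, the 3 genes with the highest r to each, and members of 5 lists (receptors, receptor signalling, activators, dampers, decay factors), besides cell type markers. Members, lists, tests and alternatives were chosen with earlier results of these data known. The alternatives were no filter, a stricter filter (mean of 5 CPM), a further 1 CPM before the log, median-ratio scaling, quantile normalization, a robust prior, a prior that ignores the mean, voom weights on the recovered reads, only the libraries compared, a replicate block, and each library left out. Gene positions are from RefSeq and transcripts from GENCODE M21, both GRCm38. Protein sequences were not used here. One gene of the receptor signalling list is not reported here.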

Additional observations from a re-analysis of the deposited data

How the results depend on the processing

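At 9525979 to 12439960 reads per library, *Il23a* and the 0-hr values of *Il12a*, *Il12b* and *Il27* rest on 0 to 19 reads and their folds are imprecise. Members called from 4 to 8 hr in S513A numbered 4 rather than 2 with voom weights, and members called between genotypes at 8 hr numbered 1 rather than 0 with a prior without a trend. The stricter filter removed *Il23a*. Counts of members called under the other alternatives stayed within 1.5 times the reported ones, and leaving out 1 library at a time gave 4 to 5 members from 0 to 8 hr in S513A and the reported count in every other contrast. Fits of only the libraries compared were not run for averages and interactions.

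The labels give both genotypes and all times the same replicate numbers. Deviations of same-numbered libraries correlated from -0.749 to 0.760 between groups, and from -0.358 to 0.760 between the times of a genotype. These values do not settle whether equal numbers share a mouse or a preparation. With the replicate block, counts of members called were unchanged in all 13 contrasts. The ratio changes kept their values (-1.34 for *Il12b* over *Il12a*, 2.30 for *Ebi3* over *Il27*, -2.99 for *Il23a* over *Il12a*). For *Il12b* over *Il12a* and *Ebi3* over *Il27* an exact sign-flip test gave p = 0.125, the smallest that 4 pairs allow. No p is given for the ratio that holds *Il23a*. A further 1 CPM turned *Il12b* over *Il23a* to -0.775 and moved *Il23a* over *Il12a* to -0.557, and the construction shows why, since *Il23a* lies near or under 1 CPM.

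Small differences between genotypes changed sign, none of them past the threshold in either setting. A further 1 CPM gave 0.0726 for *Il12a* averaged over times, and interactions of 0.0636 for *Il23a* and 0.209 for *Il27* from 0 to 4 hr and 0.193 for *Il27* from 0 to 8 hr. Quantile normalization gave 0.271 for *Il23a* from 0 to 4 hr, and 0.0699 for *Il27* and 0.0173 for *Ebi3* from 4 to 8 hr. Median-ratio scaling gave 0.00597 for *Il27* and 0.00428 for *Ebi3* from 4 to 8 hr, where voom weights gave 0.00664 for *Ebi3*. The causes were not tested.

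Leaving out 1 library at a time, the log2 change of *Ebi3* from 4 to 8 hr in S513A ranged from -0.0293 to 0.421. Between genotypes, *Il27* at 0 hr ranged from -0.00303 to 0.928, *Il12b* at 4 hr from -0.0449 to 0.184, *Il23a* at 4 hr from -0.265 to 0.565, *Ebi3* at 8 hr from -0.337 to 0.113, and *Il12a* averaged over times from -0.305 to 0.100. Interactions from 0 to 4 hr ranged from -0.494 to 0.336 for *Il23a*, -0.555 to 0.377 for *Il27* and -0.00531 to 0.346 for *Ebi3*. From 0 to 8 hr they ranged from -0.555 to 0.377 for *Il27* and -0.0565 to 0.393 for *Ebi3*, and from 4 to 8 hr from -0.0897 to 0.149 for *Il12a*, -0.182 to 0.182 for *Il27* and -0.227 to 0.223 for *Ebi3*.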
